A study of Rattus norvegicus with 15 samples.

Results

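The collagen gene family was followed through 15 libraries of mammary tumours from Fischer rats. All genes of the deposited table whose symbol reads COL, a number, A and a number were taken if they had at least 100 counts in all, which gave 26 of the 17463 genes listed. They comprised 9 fibrillar collagen genes, 6 genes of basement membrane collagens, 5 genes of FACITs (fibril-associated collagens with interrupted triple helices) and 6 genes of other types. Just inside the limit stood COL4A4 with 145 counts, COL23A1 with 178 and COL9A1 with 388. Just outside it stood COL1A2 with 28 counts and COL6A4 with 20. The genes COL4A2, COL4A5, COL4A6, COL6A1, COL6A3, COL10A1, COL12A1 and COL24A1 were not analysed here.

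Every tumour had been induced with the carcinogen N-nitroso-N-methylurea (NMU), injected intraperitoneally on 2 occasions at 50 mg/kg in both groups as far as the labels say. Midkine is a secreted, heparin-binding growth factor. The midkine group (9 libraries) received the protein at 300 ug/kg, 3 times per week, for 2 weeks before each NMU injection, and the other group (6 libraries) received vehicle. The comparison addressed whether collagen genes differ between tumours that arose after midkine and tumours that arose after vehicle. Libraries are named by group and title number, so that midkine 4-1, 4-2 and 4-3 share a number. Shared numbers may stand for tumours of the same animal, which no label states, so p-values measure the spread between these libraries only. A small tumour piece was used for each library, and the sources used here do not give the age of the rats.

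Collagens are trimers of chains wound into a triple helix. Fibrillar collagens form the tensile fibres of connective tissue and are made mainly by fibroblasts. Type IV collagen forms the sheet under epithelium and around vessels, and FACITs attach to the surface of fibrils. In the mammary gland the fibrillar types lie in the stroma, while epithelium and myoepithelium rest on basement membrane. In bulk tumour tissue, fewer cells of a type and less RNA per cell cannot be told apart.

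The RefSeq promoter table (rat assembly GRCr8) held an entry for 20 of the 26 genes. The fibrillar genes COL1A1, COL2A1 and COL3A1 had none. The bases upstream of 4 of them are printed, as far as they lie in no annotated gene. COL5A2 and COL5A3 are shown because they encode chains of type V collagen whose levels followed different patterns here. COL4A1 and COL4A3 are shown because each of these genes begins close to a neighbouring type IV gene that runs the other way. Capitals mark matches on either strand to the CCAAT box (CCAAT), to the TATA box motif (TATAAA) or to the GC box motif (GGGCGG), which do not overlap here. The COL5A2 stretch (chr9:55090152-55090401, minus strand) holds none of the 3 motifs.
COL5A2: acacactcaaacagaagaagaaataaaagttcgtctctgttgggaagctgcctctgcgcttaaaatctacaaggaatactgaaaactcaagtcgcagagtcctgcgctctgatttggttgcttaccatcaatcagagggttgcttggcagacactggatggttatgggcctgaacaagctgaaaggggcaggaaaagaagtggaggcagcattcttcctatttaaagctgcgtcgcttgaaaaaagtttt
The COL5A3 stretch (chr8:27626003-27626198, minus strand) ends 54 bases before the start given in the table.
COL5A3: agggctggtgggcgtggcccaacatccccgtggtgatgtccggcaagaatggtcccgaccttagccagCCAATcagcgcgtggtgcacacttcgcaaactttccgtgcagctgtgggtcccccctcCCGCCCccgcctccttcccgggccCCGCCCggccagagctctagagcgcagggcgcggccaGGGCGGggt
The COL4A1 stretch (chr16:84885521-84885596, plus strand) is the whole interval of 76 bases between the start of COL4A1 and that of COL4A2 on the opposite strand.
COL4A1: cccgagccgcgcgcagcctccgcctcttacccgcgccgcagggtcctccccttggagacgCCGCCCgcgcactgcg
The COL4A3 stretch (chr9:91323740-91323989, plus strand) covers the nearer part of the 412 bases between the start of COL4A3 and that of COL4A4 on the opposite strand.
COL4A3: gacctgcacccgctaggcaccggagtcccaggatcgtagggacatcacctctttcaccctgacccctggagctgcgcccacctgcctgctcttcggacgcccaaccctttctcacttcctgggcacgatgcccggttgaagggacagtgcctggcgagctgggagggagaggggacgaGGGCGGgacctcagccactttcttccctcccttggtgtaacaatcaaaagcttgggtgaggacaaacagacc

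COL5A3 carried CCAAT from 182 to 178 bases before its start and 3 matches to GGGCGG, while COL4A1 and COL4A3 carried 1 match to GGGCGG each. Over the 250 bases before the start, GGGCGG occurred in 12 of the 20 collagen entries and in 30.5% of all 33469 entries. It was present in 5 of 6 fibrillar, 4 of 6 basement membrane, 1 of 3 FACIT and 2 of 5 other entries. The 6 fibrillar entries do not cover COL1A1, COL2A1 or COL3A1. In 10 of the 20 collagen entries the 250 bases overlapped an annotated gene. CCAAT occurred in 4 of 20 collagen entries against 34.0% of all, and TATAAA in 2 of 20 against 12.9%. The median G+C content was 62% in collagen entries and 51.2% in all entries. Letters that match a motif are a description and do not show that a factor binds there.

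Libraries held 4925504 to 8486523 counted reads, and levels are given as CPM, in which each library's total is first adjusted by trimmed mean of M-values. Before any comparison, 2 midkine libraries stood apart. The library midkine 5 held 12.6% of its counted reads in collagen genes, against 0.244% to 1.86% in the other 14 libraries. COL1A1 and COL3A1 alone took 11.3% of the reads of midkine 5. The library midkine 1 had 313401 CPM summed over 8 skeletal muscle genes and the smallest collagen share. Midkine 5 came second for the muscle genes with 3441 CPM, and every other library had at most 741 CPM. Fold changes of collagen genes are therefore given with and without midkine 5.

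**Figure D1:**
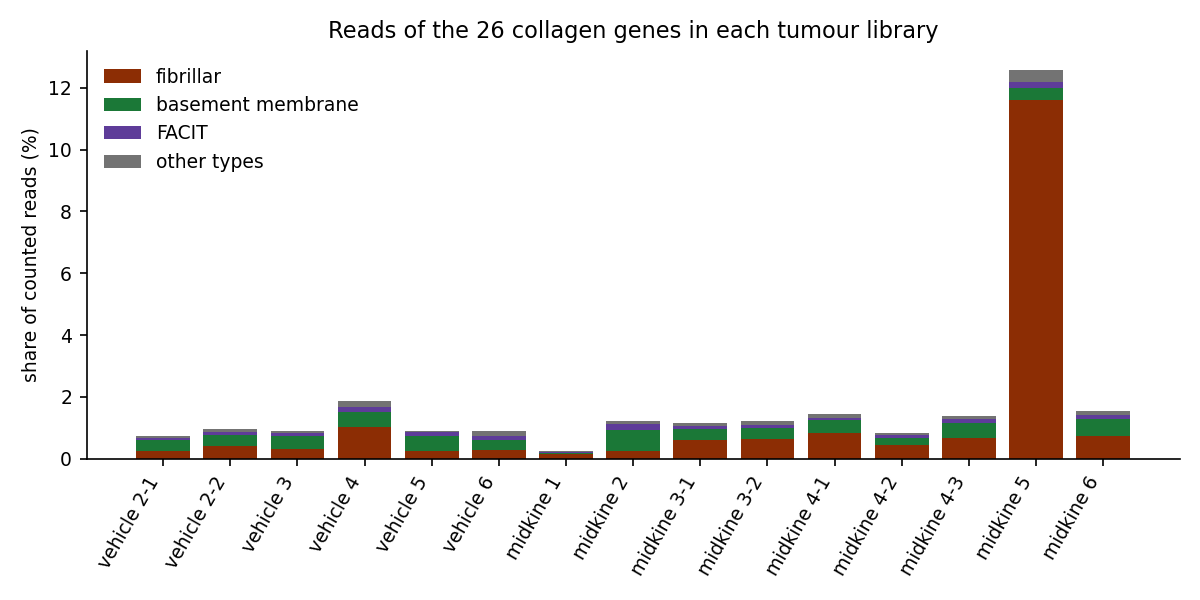
Share of counted reads (%, y axis) that fell on the 26 collagen genes in each library (x axis), stacked by collagen class. Fibrillar genes made up 11.6% of the reads in midkine 5 and at most 1.03% in any other library, while the basement membrane segment stayed between 0.0514% and 0.655%.

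The share of reads on collagen genes was 1.04 ± 0.407% (SD, n = 6) in vehicle and 2.40 ± 3.83% (SD, n = 9) in midkine libraries. Without midkine 5 the midkine share was 1.13 ± 0.421% (SD, n = 8), within the spread of the vehicle libraries. For the fibrillar class the shares were 0.422 ± 0.303% in vehicle and 1.77 ± 3.69% in midkine, and 0.545 ± 0.240% without midkine 5. For the basement membrane class they were 0.407 ± 0.0615% and 0.385 ± 0.174%, and midkine 5 stood at 0.385%. The library with the least basement membrane collagen was midkine 1 (0.0514%) and the one with the most was midkine 2 (0.655%). The FACIT class took 0.110 ± 0.0318% in vehicle and 0.113 ± 0.0573% in midkine.

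No collagen gene passed an adjusted p of 0.05 in edgeR's quasi-likelihood test of midkine against vehicle. All 26 were among the 11665 genes that passed the low-count filter, and no other gene passed the threshold either (0% called in each direction). At an unadjusted p under 0.05, 4 collagen genes were higher in midkine (COL1A1, COL3A1, COL5A1 and COL5A3) and 0 lower. The background at that level was 7.96% of all genes higher and 2.13% lower. Without midkine 5, 0 of 25 collagen genes reached an unadjusted p under 0.05, against 7.5% of all genes higher and 2.02% lower. DESeq2 called 0.619% of genes higher and 0.0432% lower at an adjusted p of 0.05, and limma-voom called 0% in each direction. Neither of these tools called a collagen gene, but DESeq2 gave no p to COL1A1 and COL3A1, so it could not call them. In DESeq2 5 collagen genes had an unadjusted p under 0.05, all higher, against 936 higher and 309 lower among the 11665 genes. In limma-voom 2 collagen genes had an unadjusted p under 0.05, both higher, against 2.42% of all genes higher and 2.74% lower. For 0 of the 26 genes did every midkine library lie above, or every one below, every vehicle library. Of all genes tested, 0.0171% lay wholly above and 0% wholly below.

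**Figure D2:**
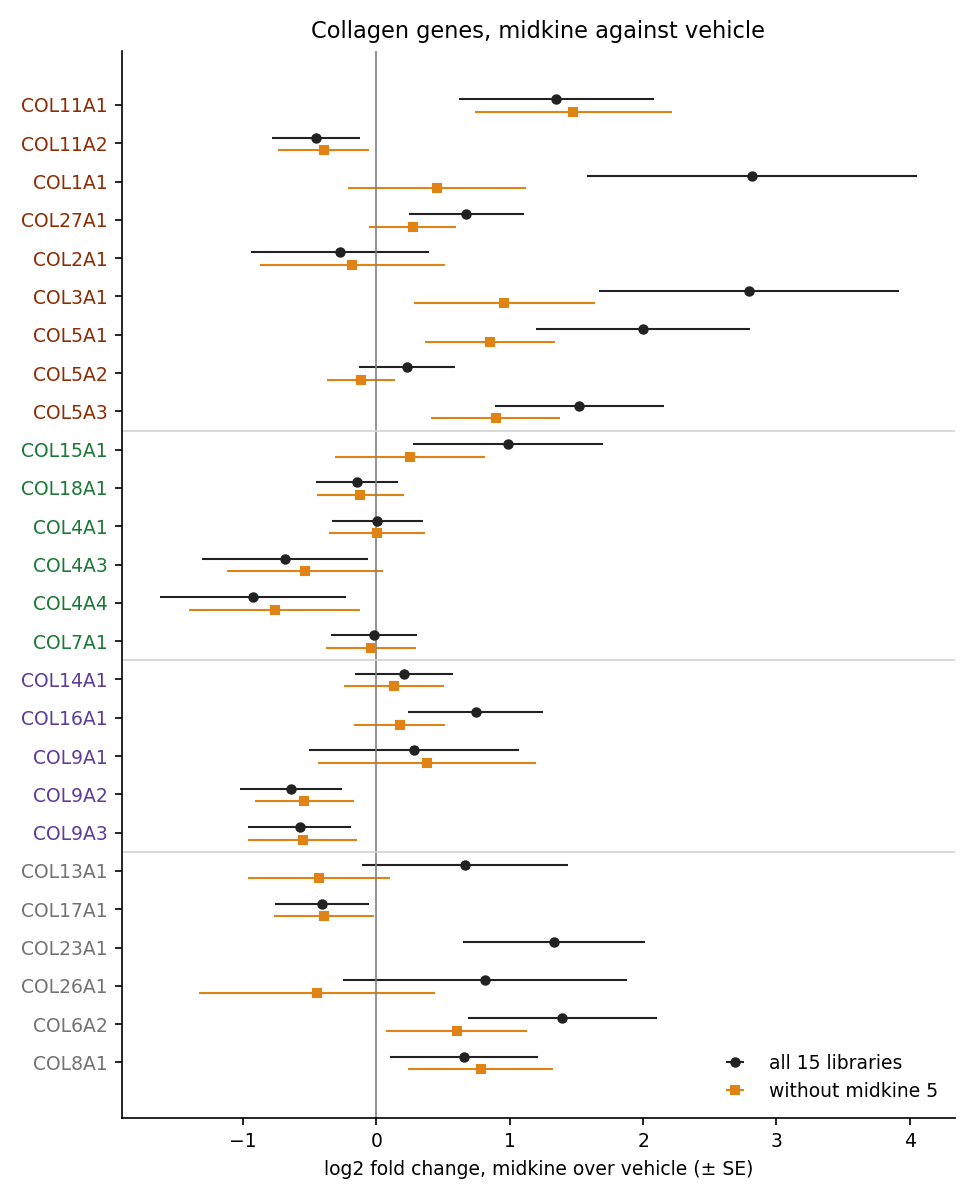
Log2 fold change of midkine over vehicle (x axis, ± SE) for each collagen gene (y axis, coloured by class), from edgeR with all 15 libraries (circles) and without midkine 5 (squares). COL1A1 moves from 2.82 to 0.45 when midkine 5 is left out, while COL4A1 stays at 0.01 and 0.00.

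Fibrillar collagen genes leaned upward in midkine, and most of that lean was carried by midkine 5. The median log2 fold change of the 9 genes was 1.35, with 7 above 0, and it was 0.45 with 6 above 0 once midkine 5 was left out. Over all genes tested the median was 0.04 in both fits, with 55.7% above 0 in the first and 55.3% without midkine 5. These shares are the background for the counts of genes above 0 in every class below.

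COL1A1 encodes the chain that predominates in type I collagen, the main protein of interstitial fibres. Its level ran from 240.1 CPM (vehicle 5) through a median of 906 to 5238 CPM (vehicle 4) in vehicle libraries. In midkine libraries it ran from 128 CPM (midkine 2) through a median of 2671 to 82114 CPM (midkine 5). The next midkine library stood at 3606 CPM, below vehicle 4, so apart from midkine 5 the midkine range lay within or below the vehicle range. The log2 fold change stood at 2.82 (SE 1.24, adjusted p = 0.462, edgeR) and 0.45 (SE 0.67, adjusted p = 0.871) without midkine 5. DESeq2 replaced the count of 461048 in midkine 5 by 10336 as an outlier, gave 0.44 (SE 0.60) and no p.

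COL3A1 encodes the single chain of type III collagen, found beside type I in pliable tissues and vessel walls. Vehicle libraries ran from 124 to 2678 CPM (median 646) and midkine libraries from 55.5 to 44905 CPM (median 2109). The order of libraries was close to that of COL1A1: midkine 5 was the highest and midkine 2 the lowest for both genes. Here midkine 3-2 and 4-1 (2900.1 and 2879.6 CPM) also exceeded the highest vehicle library. The log2 fold change stood at 2.80 (SE 1.13, adjusted p = 0.431) and 0.96 (SE 0.68, adjusted p = 0.703) without midkine 5. DESeq2 replaced the count of 252130 in midkine 5 by 8659 as an outlier, gave 0.95 (SE 0.60) and no p.

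The second chain of type I collagen, COL1A2, had 28 counts in 15 libraries against 658760 for COL1A1. Of these, 19 were in midkine 5, and 7 libraries had none. The sources used here do not say how reads that match several places, or either strand, were counted. The ratio of the type I chains was therefore not computed.

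Type V collagen is a minor fibrillar type that sits inside type I fibrils and is known to set their width. It is built from the products of COL5A1, COL5A2 and, in some tissues, COL5A3. COL5A1 ran from 26.4 to 173 CPM in vehicle (median 42.7) and from 31.6 to 1392 CPM in midkine (median 119.9). Midkine 5 was the highest and midkine 3-2 followed at 200.5 CPM, while midkine 1 and 2 lay among the lower vehicle libraries. The log2 fold change stood at 2.00 (SE 0.80, adjusted p = 0.431), and 0.85 (SE 0.49, adjusted p = 0.618) without midkine 5.

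COL5A3 ran from 18.4 to 118 CPM in vehicle (median 24.0) and from 19.98 to 482 CPM in midkine (median 81.8). Its pattern was that of COL5A1, with midkine 5 first, midkine 3-2 second at 167 CPM and vehicle 5 last. Its log2 fold change stood at 1.52 (SE 0.63, adjusted p = 0.441), and 0.89 (SE 0.48, adjusted p = 0.589) without midkine 5.

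COL5A2 varied less and did not share that lean. It ran from 277 to 568.4 CPM in vehicle (median 408) and from 151 to 1381 CPM in midkine (median 423). Midkine 5 was again the highest, but midkine 6 followed at 606 CPM, and midkine 1 and 4-2 lay below all vehicle libraries. Its log2 fold change stood at 0.23 (SE 0.36, adjusted p = 0.881) and took the opposite sign, -0.11 (SE 0.25), without midkine 5. The upstream stretch of COL5A2 has a G+C content of 44.8%, against 70.4% in that of COL5A3. The stretches are unlike: 250 bases up to the start for COL5A2, and 196 bases ending 54 bases before it for COL5A3. Any part of base composition in these levels was not tested.

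The ratio of COL5A1 to COL5A2 counts within a library needs no scaling between libraries. On the log2 scale it was -3.05 ± 0.956 (SD, n = 6) in vehicle and -1.72 ± 1.04 (SD, n = 9) in midkine libraries. Vehicle libraries ran from -4.37 (vehicle 5) to -1.71 (vehicle 4), and midkine libraries from -3.72 (midkine 2) to 0.01 (midkine 5), so the groups overlapped. The difference of 1.33 had a two-sided exact permutation p of 0.0266 over 5005 arrangements, and 0.0531 after Benjamini-Hochberg adjustment over the 2 ratios that could be computed. Leaving out midkine 5, which was the highest, gave a difference of 1.11. The ratio of COL3A1 to COL1A1 was -0.59 ± 0.326 (SD, n = 6) in vehicle and -0.37 ± 0.539 (SD, n = 9) in midkine. Its difference of 0.23 had an exact permutation p of 0.370 (adjusted 0.370). The other 5 of the 7 planned ratios need a chain with too few counts or one that was not analysed here.

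**Figure D3:**
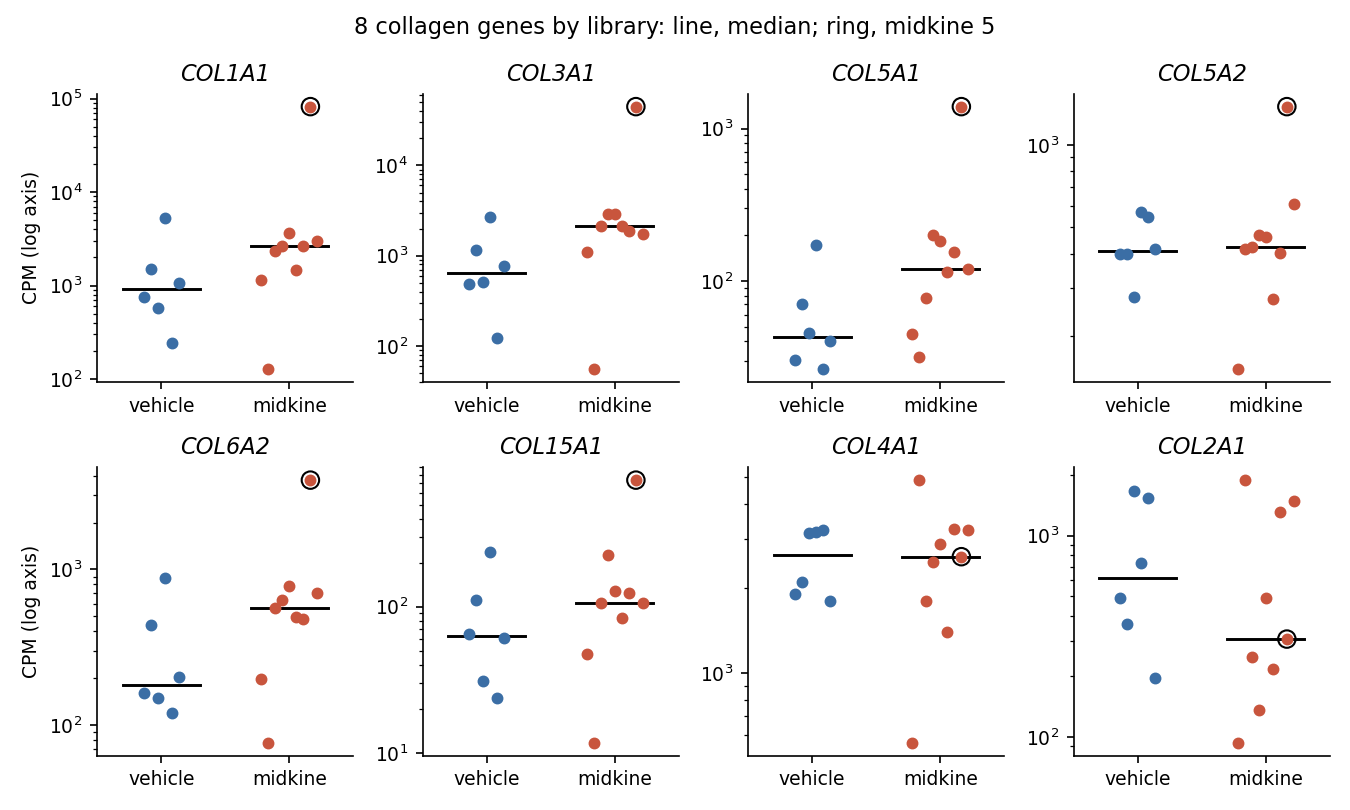
Level of 8 collagen genes (CPM, log y axis) in each vehicle and midkine library (x axis). Lines are group medians and rings mark midkine 5, which lies above every other point for COL1A1, COL3A1, COL5A1, COL5A2, COL6A2 and COL15A1 and within the other points for COL4A1 and COL2A1.

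Of the remaining 4 fibrillar genes, COL27A1 was highest in midkine 5 and the other 3 were not. COL11A1, a chain of type XI collagen that is known from cartilage and from tumour stroma, ran from 2.18 to 46.1 CPM in vehicle (median 5.70) and from 9.62 to 86.9 CPM in midkine (median 16.8). Midkine 3-1, 4-1 and 4-3 (86.9, 72.2 and 50.6 CPM) exceeded the highest vehicle library, vehicle 6, and midkine 5 was the lowest midkine library. Its log2 fold change stood at 1.35 (SE 0.73, adjusted p = 0.568), 1.48 without midkine 5 and -0.08 without the 5 midkine libraries of title numbers 3 and 4. In those 5 libraries the muscle myosin MYH4 had at most 1 count, against 461 or more in every other library. Whether that difference has a part in the COL11A1 values was not tested.

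COL2A1, the chain of the main cartilage collagen, was measured in every tumour. It ran from 197 to 1660.1 CPM in vehicle (median 613) and from 93.8 to 1887 CPM in midkine (median 306), with complete overlap of the vehicle range. Midkine 2 was the highest and midkine 1 the lowest, and the log2 fold change stood at -0.27 (SE 0.67, adjusted p = 0.929), and at -0.18 (SE 0.69) without midkine 5. Of the cartilage markers, MATN1 had 1 count in all libraries and EPYC had counts only in midkine 5 (4 counts). SOX9 had between 516 and 2044 counts in each library, SNORC between 326 and 1597, and COMP between 3 and 12. COL11A2 ran from 9.57 to 36.5 CPM over all libraries, with a log2 fold change of -0.45 (SE 0.33), and -0.40 (SE 0.34) without midkine 5. COL27A1, a minor fibrillar chain, ran from 6.54 to 22.8 CPM in vehicle (median 10.1) and from 8.57 to 61.3 CPM in midkine (median 13.9). The highest value was that of midkine 5, with 24.4 CPM in the next midkine library, and the log2 fold change of 0.67 (SE 0.43) became 0.27 (SE 0.33) without it.

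The counts of COL1A1 per count of COL2A1 show how far the tumours differed in their collagen makeup. This ratio ran from 0.0676 in midkine 2 to 268 in midkine 5. It was below 1 in midkine 2, vehicle 5 (0.157) and vehicle 3 (0.345), and lay between 1.53 and 19.6 in the other 11 libraries. The extremes both belonged to the midkine group. Counts were not divided by gene length, so a ratio of 1 does not mean equal numbers of transcripts, and only differences between libraries can be read.

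**Figure D4:**
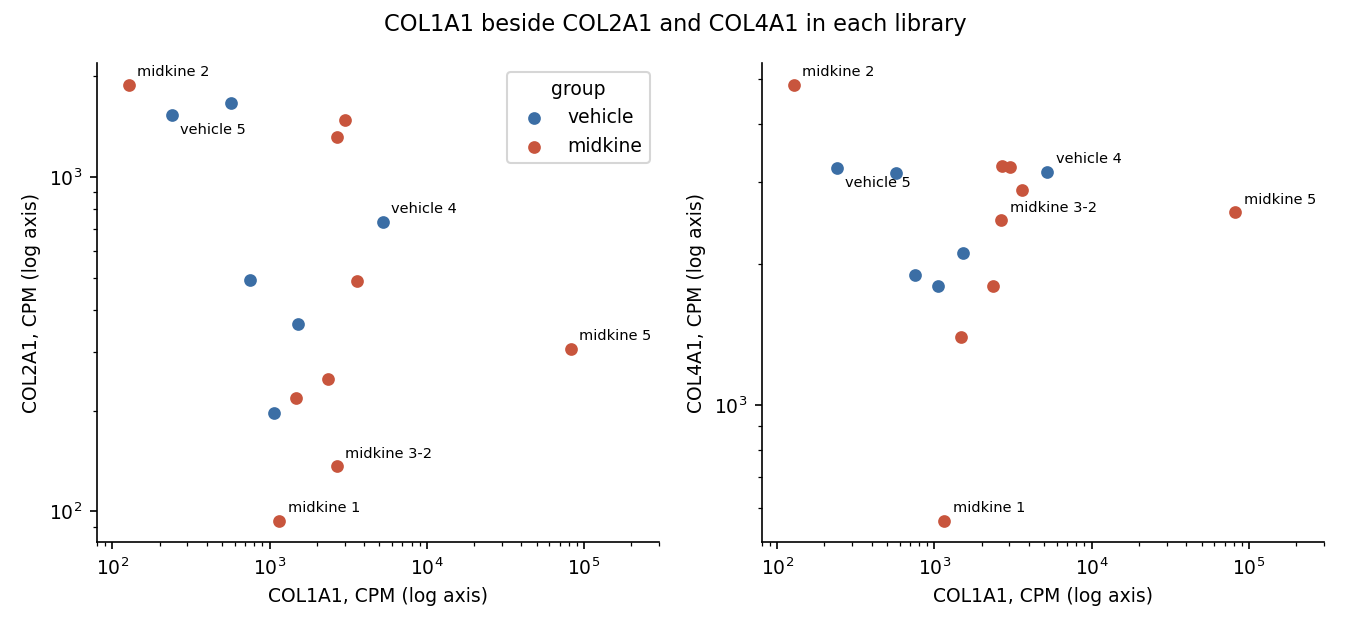
COL1A1 level (CPM, log x axis) beside COL2A1 (left) and COL4A1 (right) levels (CPM, log y axes) in each library. Midkine 5 lies far to the right at 82114 CPM of COL1A1 with middling COL2A1 and COL4A1, and midkine 2 lies at the left edge at 128 CPM with the highest COL2A1 and COL4A1.

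Basement membrane collagen genes showed no common direction. The median log2 fold change of the 6 genes was -0.08 with 2 above 0, and it was the same without midkine 5. COL4A1, a chain of the type IV network present in all basement membranes, ran from 1800.0 to 3213 CPM in vehicle (median 2626) and from 565 to 4856 CPM in midkine (median 2592). Midkine 2 was the highest and midkine 1 the lowest, so the midkine group was wider on both sides. The log2 fold change stood at 0.01 (SE 0.34, adjusted p = 0.999) and 0.00 (SE 0.36) without midkine 5, which stood at 0.965 times the median of the other midkine libraries.

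COL18A1 and COL15A1 encode collagens of the basement membrane zone that release anti-angiogenic fragments. COL18A1 ran from 721 to 1126 CPM in vehicle (median 947) and from 174 to 1402 CPM in midkine (median 858), with a log2 fold change of -0.15 (SE 0.31, adjusted p = 0.916), and -0.12 (SE 0.33) without midkine 5. Midkine 1 was the low library and midkine 6 the high one. COL15A1 differed from the other genes of this class, because its extreme libraries were those of COL1A1. It ran from 23.8 to 236 CPM in vehicle (median 63.0) and from 11.8 to 734 CPM in midkine (median 106), with midkine 5 the highest, vehicle 4 second and midkine 2 the lowest. Its log2 fold change stood at 0.98 (SE 0.71, adjusted p = 0.697), and 0.25 (SE 0.57) without midkine 5.

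COL7A1 forms the anchoring fibrils that tie a basement membrane to the stroma. It ran from 132 to 341 CPM in vehicle (median 209) and from 91.5 to 412 CPM in midkine (median 175), and its log2 fold change was -0.02 (SE 0.32, adjusted p = 0.993), and -0.04 (SE 0.34) without midkine 5. COL4A3 and COL4A4, chains of the specialised type IV network of kidney and lung, were close to the detection limit with 416 and 145 counts in all. Their log2 fold changes were -0.69 (SE 0.62) and -0.93 (SE 0.70), and without midkine 5 -0.54 (SE 0.59) and -0.77 (SE 0.64). COL4A3 was highest in vehicle 2-1 at 12.1 CPM, and COL4A4 was at 0 in vehicle 3, midkine 1 and midkine 5.

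FACIT genes were split. The median log2 fold change of the 5 genes was 0.20 with 3 above 0, and 0.13 without midkine 5. The sign of that median rested on single libraries: it was -0.46 with 2 genes above 0 without midkine 4-3, and -0.05 without midkine 2. COL14A1, which binds fibril surfaces in skin, tendon and other dense tissue, ran from 286 to 938 CPM in vehicle (median 598) and from 170.2 to 1552 CPM in midkine (median 563). Midkine 2 was the highest and midkine 5 second, and the log2 fold change stood at 0.20 (SE 0.37, adjusted p = 0.896), and 0.13 (SE 0.38) without midkine 5. COL16A1 ran from 64.7 to 305 CPM in vehicle (median 158) and from 119 to 1030.3 CPM in midkine (median 205). Midkine 5 alone exceeded 306 CPM, and the log2 fold change of 0.74 (SE 0.50, adjusted p = 0.666) became 0.17 (SE 0.34) without it.

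The type IX chains, which coat type II fibrils in cartilage, pointed both ways. COL9A2 ran from 61.1 to 209 CPM in vehicle (median 147) and from 39.2 to 199 CPM in midkine (median 77.2), and 4 of 9 midkine libraries lay below all vehicle libraries. COL9A3 ran from 67.3 to 187 CPM (median 141) and from 33.3 to 218 CPM (median 76.1), also with 4 midkine libraries below all vehicle libraries. The log2 fold changes were -0.64 (SE 0.38, adjusted p = 0.606) and -0.58 (SE 0.38, adjusted p = 0.656), and without midkine 5 they were -0.54 (SE 0.37) and -0.55 (SE 0.41). COL9A1 had 388 counts in all and a log2 fold change of 0.28 (SE 0.79), or 0.38 (SE 0.82) without midkine 5, with its highest level, 16.1 CPM, in midkine 4-3.

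Among the other types, the median log2 fold change of the 6 genes was 0.74 with 5 above 0. Without midkine 5, 2 of the 5 genes that could be fitted were above 0 and the median was -0.40. COL6A2, a chain of the beaded filaments that surround cells in nearly all connective tissue, ran from 119 to 879.6 CPM in vehicle (median 181) and from 76.9 to 3754 CPM in midkine (median 567). As for COL1A1, midkine 5 was the highest, vehicle 4 second and midkine 2 the lowest. Its log2 fold change stood at 1.39 (SE 0.71, adjusted p = 0.540), and 0.60 (SE 0.53, adjusted p = 0.778) without midkine 5. Its partner chains were not analysed here.

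COL8A1, a short-chain collagen of vessel walls and of the corneal endothelium's basement membrane, separated the midkine libraries among themselves. Vehicle libraries lay between 6.61 and 15.2 CPM (median 12.9). Of the 9 midkine libraries, 6 lay above all vehicle libraries (18.4 to 47.2 CPM) and the other 3, midkine 1, 2 and 5, lay below all of them (1.67, 2.83 and 5.70 CPM). The log2 fold change stood at 0.66 (SE 0.56, adjusted p = 0.749), 0.78 (SE 0.54) without midkine 5, and -0.75 without title numbers 3 and 4, whose 5 libraries were the highest for this gene. This was the 1 collagen gene among the 26 for which no midkine library lay inside the vehicle range. How many of all genes share this pattern was not counted, so it does not set COL8A1 apart.

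The transmembrane collagens were COL17A1, COL13A1 and COL23A1. COL17A1, part of the hemidesmosomes of basal epithelial cells, ran from 283 to 1357 CPM in vehicle (median 439) and from 235 to 747 CPM in midkine (median 433), with a log2 fold change of -0.41 (SE 0.35, adjusted p = 0.756), and -0.40 (SE 0.37) without midkine 5. Vehicle 6 was the high library. COL13A1, a transmembrane collagen of cell junctions, ran from 5.55 to 23.0 CPM and from 1.04 to 92.3 CPM, and its log2 fold change of 0.66 (SE 0.77) turned to -0.43 (SE 0.53) without midkine 5. COL23A1 had 178 counts in all and a log2 fold change of 1.33 (SE 0.68, adjusted p = 0.541), with 7.01 CPM in midkine 2 and 4.10 CPM in midkine 5. It fell under the low-count filter once midkine 5 was left out. The secreted COL26A1 ran from 0.985 to 45.1 CPM and from 0.596 to 116 CPM, and its log2 fold change of 0.82 (SE 1.06) turned to -0.44 (SE 0.88).

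**Figure D5:**
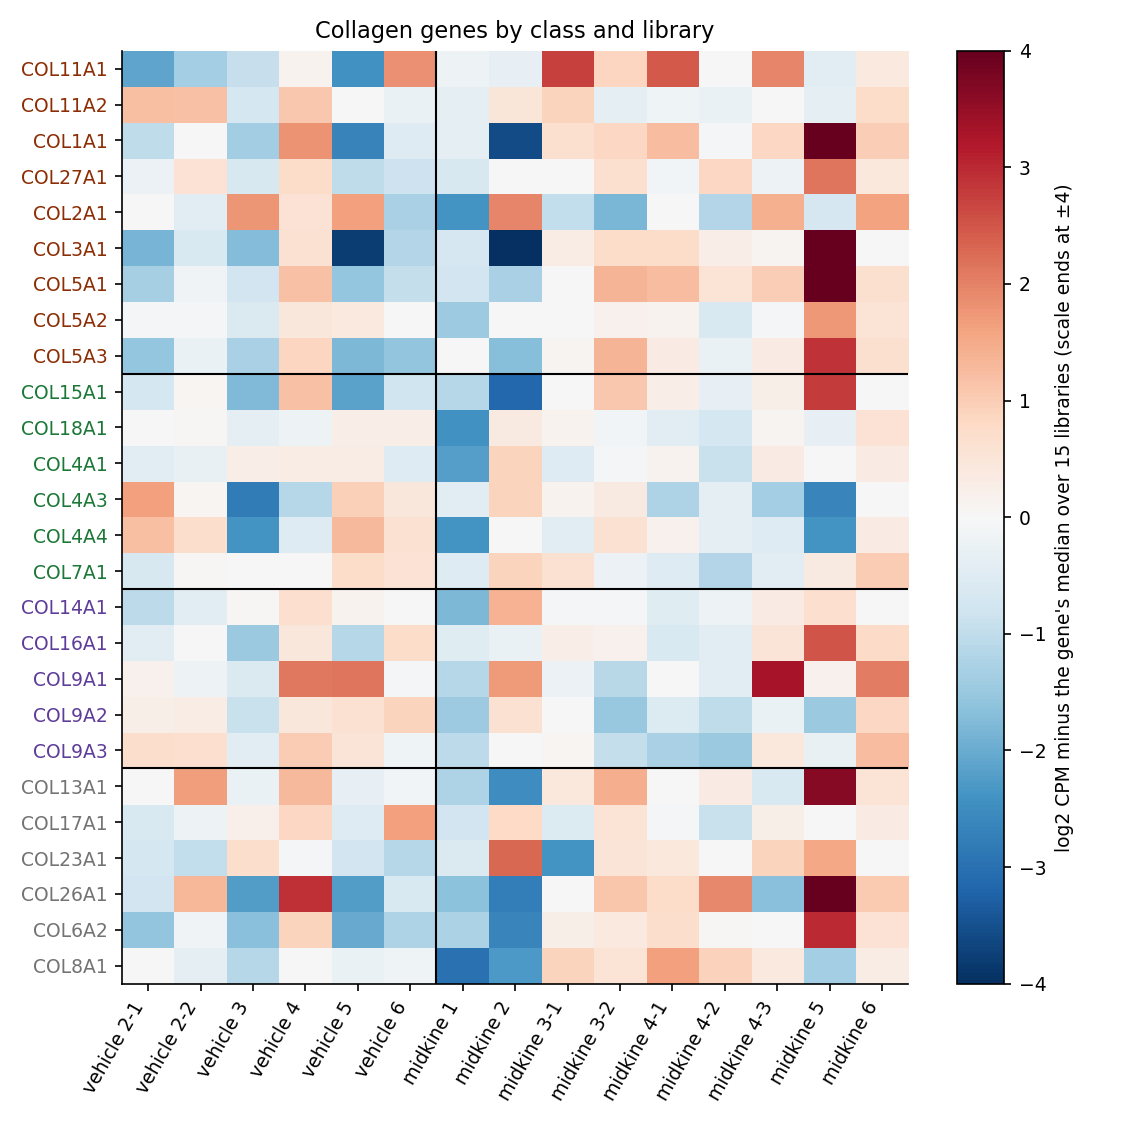
Log2 CPM of each collagen gene (rows, grouped by class) in each library (columns, vehicle left of the line), relative to that gene's median over the 15 libraries. Midkine 5 is red for most fibrillar genes and near neutral for COL4A1, and midkine 2 is blue for COL1A1, COL3A1 and COL6A2 and red for COL2A1 and COL4A1.

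The excess in midkine 5 did not extend to the whole family. That library was the highest of the 15 for 11 of the 26 collagen genes (42.3%), against 10.1% of all genes. These were 6 fibrillar genes, COL15A1, COL16A1 and 3 of the other types. Relative to the median of the other midkine libraries it was 32.7 times higher for COL1A1, 22.6 for COL3A1, 15.1 for COL26A1, 11.9 for COL5A1 and 11.5 for COL13A1. It was 3.29 times higher for COL5A2. It was lower than that median for 10 genes, which came from all 4 classes. Among them were COL8A1 (0.271 times), COL9A2 (0.469), COL11A1 (0.476), COL18A1 (0.802), COL11A2 (0.808), COL2A1 (0.831), COL17A1 (0.934) and COL4A1 (0.965). The other 2 were the sparse COL4A3 (0.111) and COL4A4, which had no count there.

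Midkine 2 lay at the other end for 6 of those 11 genes. It was the lowest of the 15 libraries for COL1A1, COL3A1, COL6A2, COL13A1, COL15A1 and COL26A1 (23.1% of collagen genes, against 4.11% of all genes). It was the highest for COL2A1, COL4A1, COL14A1 and COL23A1 (15.4%, against 2.98% of all genes). Midkine 1, the library with the most muscle reads, was the lowest for 7 collagen genes (26.9%), and also for 16.5% of all genes. The 7 included COL4A1, COL5A2, COL14A1 and COL18A1. Vehicle 4 held the most collagen reads of the vehicle libraries (1.86%) and ranked second of all 15 for genes that included COL1A1, COL6A2, COL15A1 and COL26A1.

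Genes that make and finish collagen were read from the same fit, and none passed the adjusted threshold. Beside the counts above 0 in these and the later lists, 55.7% of all genes tested lay above 0 (55.3% without midkine 5). Collagen chains are hydroxylated and glycosylated by enzymes of the endoplasmic reticulum, and 9 of 13 such genes lay above 0 with a median log2 fold change of 0.13 (-0.04 without midkine 5). P4HA3, a prolyl hydroxylase subunit, had the smallest p of this list, with 1.70 (SE 0.60, adjusted p = 0.399) and 1.84 without midkine 5. Without midkine title numbers 3 and 4 it was at 0.33 (SE 0.52). P4HA3 lay above all vehicle libraries in 6 of 9 midkine libraries and below all of them in 2. All 8 folding and secretion genes lay above 0 with a median of 0.54 (0.20 without midkine 5), and 7 of them were highest in midkine 5. SPARC, a matrix protein that binds collagen, reached 26295 CPM there, against 4460 CPM in the next midkine library.

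Procollagen propeptides are cut by BMP1 and ADAMTS proteases, and 6 of 7 genes of this step lay above 0 with a median of 1.37 (1.03 without midkine 5). PCOLCE2, an enhancer of that cleavage, had 1.89 (SE 0.58, adjusted p = 0.399) and 1.99 without midkine 5. Its relative PCOLCE had 1.42 (SE 0.54, adjusted p = 0.405) and 1.03 without midkine 5. Both lay above all vehicle libraries in 6 of 9 midkine libraries, and PCOLCE lay below every vehicle library in midkine 2. Of the cross-linking genes, 5 of 6 lay above 0 with a median of 1.03 (0.64). TGM2, a transglutaminase, had 0.79 (SE 0.25, adjusted p = 0.399) and 0.73 without midkine 5. LOXL2, a lysyl oxidase, had 1.31 (SE 0.48, adjusted p = 0.399) and 1.08, while LOX moved from 2.78 (SE 1.08) to 1.71 (SE 0.88) without midkine 5. Of the collagen receptors, 5 of 7 lay above 0 with a median of 0.21 (0.20). ITGA11, the integrin chain by which fibroblasts bind type I collagen, had 1.74 (SE 0.57, adjusted p = 0.399) and 1.83 without midkine 5. The collagen-binding kinase DDR1 had -0.42 (SE 0.21, adjusted p = 0.540) and -0.37.

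Fibroblasts are the main source of interstitial collagen, and their markers were read in the same libraries. The summed level of the 10 fibroblast markers ran from 223 to 1066 CPM in vehicle and from 129 (midkine 2) to 4520.3 CPM (midkine 5) in midkine libraries, at most 1340.1 CPM without midkine 5. All 9 markers that could be tested lay above 0 with a median log2 fold change of 1.41 (0.86 without midkine 5), and 7 were highest in midkine 5. The lowest and highest libraries for these markers were the same as for COL1A1 and COL3A1. The remaining listed marker, TCF21, had at most 2 counts in any library and fell under the low-count filter. The part of the fibroblast markers in the collagen values was not tested.

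Other cell types were read in the same way. All 10 endothelial markers lay above 0, with a median of 0.79 (0.70 without midkine 5), and their sum ran from 210 to 489 CPM in vehicle and from 245 to 1162 CPM in midkine, with midkine 5 the highest. Of the bone markers, SP7 had at most 2 and MEPE at most 1 count in any library. Others were well measured: ALPL ran from 33.2 to 850 CPM and SPP1 from 3.21 to 92.7 CPM over all libraries. Of the 4 that could be tested, 3 lay below 0 (ALPL, SPP1 and RUNX2), while IBSP was at 0.46 (SE 0.58). Of the tendon markers, TNMD had 209 counts in midkine 5 and at most 6 in any other library, whereas KERA had 1 count in all. SCX had 318 counts in midkine 1 and 14 in midkine 5. The summed tendon markers were highest in midkine 2 (438 CPM), and midkine 5, at 135 CPM, lay below the vehicle median of 161 CPM. That sum mostly reports 1 gene, FMOD, which alone stood at 435 CPM in midkine 2, so it says little about the other tendon markers. The skeletal muscle markers were set by 1 library: their sum was 313401 CPM in midkine 1. These markers summed to 3441 CPM in midkine 5, with medians of 268 CPM over midkine and 454 CPM over vehicle libraries. Their fitted fold changes (8 of 8 above 0, median 6.39 in edgeR) therefore do not describe the group. For CKM edgeR gave 6.49 and limma-voom -2.02, and 6 of 9 midkine libraries lay below all vehicle libraries. Basal epithelial markers (2 of 8 above 0, median -0.17) and luminal markers (3 of 10, median -0.12) had medians below 0. Without midkine 5 these were -0.09 (3 of 8 above 0) and -0.02 (5 of 10). Basal markers were highest in midkine 2 (7096 CPM), as was COL4A1. Of the pericyte and smooth muscle markers 5 of 10 lay above 0, of the Schwann cell markers 2 of 6, and of the cartilage markers 1 of 3. All 4 adipocyte and all 8 macrophage markers tested lay above 0, with medians of 2.00 and 1.23 (1.63 and 1.31 without midkine 5). The adipocyte markers ADIPOQ, PLIN1, LEP and CIDEC fell under the low-count filter. The adipocyte sum was 831 CPM in midkine 1 and 606 CPM in midkine 5, with medians of 117 CPM over midkine and 74.9 CPM over vehicle libraries. Without midkine title numbers 3 and 4 the macrophage log2 fold changes ran from 0.03 (LYZ2) to 0.85 (CD163). The part of any of these in the collagen values was not tested.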

How the data were processed

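RNA of 15 tumour pieces was sequenced after poly(A) selection as 150-bp pairs, per the labels' protocols. The authors deposited raw read counts per gene symbol, as whole numbers. The genome build was rn6, per the submitters' processing notes. The sources used here do not give the aligner version, annotation, strand or multi-mapping settings. The collagen genes, their classes and the companion lists were chosen with earlier results of these data known.

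Genes were filtered with edgeR 4.0.16 (filterByExpr by group), scaled by trimmed mean of M-values and tested with the quasi-likelihood F test in R 4.3.3, with Benjamini-Hochberg adjustment over 11665 genes and a threshold of 0.05. Each standard error is the fold change divided by the square root of F. Log2 ratios of 2 chains were tested by exact permutation over libraries. The alternatives were DESeq2 1.42.0, limma-voom (limma 3.58.1), other scaling, no filter, the title number as a block, libraries of a number summed, midkine title numbers 3 and 4 left out, and each library left out. The scripts were tested on simulated data. All planned collagen genes that were measured are named, with up to 3 genes of smallest p from each companion list. TCF21, the bone, cartilage, tendon, adipocyte and macrophage markers, SPARC and MYH4 are outside that rule where they were named for their values.

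Vehicle and midkine libraries of the same number did not pair: over 9 such pairs the correlation of deviations ran from -0.44 to 0.19. Whether libraries that share a number within a group are more alike than others was not tested. Libraries differed by more than sampling noise (lowest chi-square over its degrees of freedom 19.9), so none was counted as a duplicate. Counting error is small against the spread between libraries at 4925504 to 8486523 reads, apart from the sparsest genes, such as COL4A4 with 145 counts in all.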

Additional observations from a re-analysis of the deposited data

Results flagged for a closer look

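In each group of 6 or 9 libraries, the highest and the lowest log2 level of each collagen gene were compared with the nearest library, and 5 of 52 such group checks stood out by Dixon's criterion. Chance alone gives about 1 in 20. COL5A1 stood at 1392 CPM in midkine 5, with the next midkine library at 200.5 CPM. COL16A1 stood at 1030.3 CPM in midkine 5, with the next at 306 CPM. COL18A1 stood at 174 CPM in midkine 1, the library with the most muscle reads, with the next at 574 CPM. In the vehicle group the low library was vehicle 3 on both occasions, at 61.1 CPM for COL9A2 (next 133 CPM) and at 6.61 CPM for COL8A1 (next 11.3 CPM). COL1A1 and COL3A1 were not among these because midkine 2 lay far below the other midkine libraries and widened the range.

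Both collagen genes under the limit of 100 counts had their highest count in a midkine library, above any vehicle library. COL1A2 had 19 counts in midkine 5 and 3 in midkine 3-2, against at most 1 in vehicle libraries. COL6A4, a chain related to type VI collagen, had 12 counts in midkine 4-2, against at most 3 in vehicle libraries.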

How the results depend on the processing

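DESeq2 called 92 genes, against 0 in edgeR, and no collagen gene was called under any of the settings run. COL1A1 and COL3A1 had no p in DESeq2. Leaving out midkine 5 took the fibrillar median from 1.35 to 0.45 (range 0.45 to 1.47 over the single libraries left out) and that of the other types from 0.74 to -0.40 (range -0.40 to 1.13). The fibrillar median was also lower in DESeq2 (0.69) and with the title number as a block (0.67), and that of the other types was 0.16 with the block. The DESeq2 median was taken after that tool had replaced the midkine 5 counts of COL1A1 and COL3A1. The FACIT median ran from -0.46 to 0.39, and was -0.03 in limma-voom. The difference of the COL5A1 to COL5A2 log2 ratio ran from 1.07 to 1.60, and it passed 0.05 without vehicle 4 (adjusted exact permutation p = 0.0240) and without midkine 2 (0.00799). Those are the highest vehicle and the lowest midkine library for this ratio. Leaving out either had to widen the difference, so these 2 passes do not strengthen it. The COL3A1 to COL1A1 difference turned to -0.14 without midkine title numbers 3 and 4.

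With the title number as a replicate block, 0 genes were called and the ratio differences were 1.01 (COL5A1 to COL5A2, exact permutation p = 0.153) and 0.05 (COL3A1 to COL1A1, p = 0.861). The title numbers did not pair vehicle with midkine libraries: for 0 of 6 vehicle libraries was the nearest midkine library one of the same number. In that block fit the log2 fold change of COL18A1 was 0.092, of COL7A1 0.14 and of COL13A1 -0.058, each with its sign reversed.

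Other reversals of sign, all in fold changes far from the threshold, were as follows. Without title numbers 3 and 4, COL11A1 was at -0.084, COL2A1 at 0.19, COL7A1 at 0.38 and COL8A1 at -0.75. In limma-voom COL4A1 was at -0.14, COL9A1 at -0.027 and COL13A1 at -0.20. With no low-count filter COL4A1 was at -0.0041, and with libraries of a number summed it was at -0.0035 and COL7A1 at 0.090. Leaving out single libraries gave 385 fold changes, of which 22 changed sign, in 10 genes: COL2A1 (-0.63 to 0.048), COL4A1 (-0.17 to 0.15), COL5A2 (-0.11 to 0.36), COL7A1 (-0.17 to 0.12), COL9A1 (-0.46 to 0.69), COL13A1 (-0.43 to 1.02), COL14A1 (-0.052 to 0.39), COL17A1 (-0.56 to 0.0100), COL18A1 (-0.27 to 0.0013) and COL26A1 (-0.44 to 2.08). The cause was not tested. COL4A4, COL23A1 and COL9A1 had under 400 counts, and COL23A1 could not be fitted without midkine 2, 3-2, 4-1, 4-3 or 5, with summed libraries or without title numbers 3 and 4. The 5 ratios that need COL1A2, COL4A2, COL4A6, COL6A1 or COL6A3 were not run.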
